A study of Mus musculus with 8 samples.

Results

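A set of 50 cell cycle and DNA replication genes was compared between ENCDCs (enteric neural crest-derived cells, the precursors of the neurons and glia of the bowel) and all other gut cells at E13.5. Members were the rows of the mRNA count table whose gene symbol equalled a name on the list, and all 50 names were found among the 29092 gene rows. Each of the 50 had enough counts to be tested. Flow cytometry had separated ENCDCs (GFP+) and gut cells (GFP-) of the whole bowel, stomach to anus, of *Ednrb-EGFP* embryos, which carry a GFP reporter driven by *Ednrb* and are labelled wild type in both groups. Heterozygous carriers of the reporter had been mated with wild-type C57BL/6J mice. Each group had 4 mRNA-seq libraries made with 750 pg of RNA, and RNA samples were combined where that took more than a single sample, so the p-values measure the spread between libraries. The gut group is a mixture of every GFP- cell of the bowel wall and its blood, not a single cell type.

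The cell cycle runs from G1, in which D-type cyclins with CDK4 or CDK6 and then E-type cyclins with CDK2 phosphorylate the retinoblastoma (pocket) proteins and release E2F factors, through S phase, in which licensed origins fire and DNA is copied, to G2 and mitosis, driven by cyclin A and B with CDK1, Aurora and Polo-like kinases. CDK inhibitors hold the kinases back. S phase genes are commonly read out under E2F, and many G2/M genes under the MuvB complexes that bind CHR elements, often together with CCAAT boxes bound by NF-Y. Enteric precursors divide while they colonize the bowel, and some of them leave the cycle and become neurons while others go on dividing.

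Normalized counts below are the deposited read counts of each library rescaled to the mean TMM-scaled library size. Total counts ran from 13250893 to 13267220 per library, the highest 0.123% above the lowest. Marker genes of the sorted cells went with the labels: 7 of 7 enteric progenitor markers and 7 of 7 markers of postmitotic neurons were higher in ENCDCs. Summed normalized counts of the neuron markers were 27237 to 33879 in ENCDC libraries and 685 to 781 in gut libraries. Endothelial markers did not separate the groups: 1 of 5 was higher and 3 were lower in ENCDCs. Their sums were 689 to 1145 in ENCDC libraries and 692 to 999 in gut libraries. ENCDC replicate 3 stood apart on the second principal component (11.4% of the variance). Its 6 mesenchyme markers summed to 19649, against 2776 to 8101 in the other ENCDC libraries and 142590 to 190360 in gut libraries, and it had the fewest genes detected (17953 genes above 0, against 19123 to 20070 in the other ENCDC libraries and 20083 to 22342 in gut libraries). It was the lowest of the 4 ENCDC libraries for 16 of the 50 genes and the highest for 18.

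The promoters of mitotic and replication genes carry short elements, and stretches from 6 of them are shown because their genes span the outcomes below. *Cdc20*, *Plk1* and *Cenpa* were higher in ENCDCs, *Mki67* has the same elements and was not called, and *Mcm6* and *Mcm7* have E2F matches and were called in opposite directions. Capitals mark matches on either strand to a CHR element (TTTGAA) or a CCAAT box (CCAAT) in the first 4 sequences, and to an E2F site (TTTGGCGC, TTTCCCGC, TTTGCCGC or TTTCGCGC) or a CCAAT box in the last pair. In *Mcm6* the first run of capitals is a pair of E2F matches that overlap on opposite strands, and in *Mcm7* the last run is an E2F match that overlaps a CCAAT match. The sequences come from RefSeq promoters on GRCm38.p6, read in the direction of the gene.
*Cdc20* (chr4:118437314-118437433, minus strand): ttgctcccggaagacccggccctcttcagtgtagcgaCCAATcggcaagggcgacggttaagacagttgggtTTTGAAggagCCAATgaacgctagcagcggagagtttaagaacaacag
*Plk1* (chr7:122159375-122159484, plus strand): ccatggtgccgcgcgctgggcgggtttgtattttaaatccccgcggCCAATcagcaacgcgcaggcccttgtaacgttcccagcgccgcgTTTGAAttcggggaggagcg
*Cenpa* (chr5:30666766-30666915, plus strand): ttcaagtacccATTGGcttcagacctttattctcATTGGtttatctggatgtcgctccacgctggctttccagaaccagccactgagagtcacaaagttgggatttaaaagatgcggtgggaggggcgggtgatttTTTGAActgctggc
*Mki67* (chr7:135716460-135716579, minus strand): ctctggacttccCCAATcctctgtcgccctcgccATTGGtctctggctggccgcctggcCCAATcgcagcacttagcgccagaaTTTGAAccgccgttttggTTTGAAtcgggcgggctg
*Mcm6* (chr1:128359706-128359835, minus strand): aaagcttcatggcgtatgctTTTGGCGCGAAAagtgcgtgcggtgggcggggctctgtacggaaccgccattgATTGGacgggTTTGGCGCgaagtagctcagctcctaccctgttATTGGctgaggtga
*Mcm7* (chr5:138171844-138172063, minus strand): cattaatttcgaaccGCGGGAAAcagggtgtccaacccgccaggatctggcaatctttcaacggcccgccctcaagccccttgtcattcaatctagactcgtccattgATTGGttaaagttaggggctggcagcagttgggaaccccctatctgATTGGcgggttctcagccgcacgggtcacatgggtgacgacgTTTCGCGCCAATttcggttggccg

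Across the 40 members with an entry in the promoter table (250 bases before to 50 after the start), the elements were counted by phase. A CHR match was found in 9 of 12 G2/M members (75.0%) and 2 of 12 S phase members (16.7%), beside 14.6% of the 12558 tested genes with an entry. An E2F match was found in 6 of 12 S phase members and in 1 of 12 G2/M members, *Cdk1*, beside 4.27% of tested genes. CCAAT boxes were common to both, in 11 of 12 G2/M members and 10 of 12 S phase members, beside 42.1% of tested genes. Over all 27025 genes of the table the shares were 20.2% for CHR, 2.6% for E2F and 41.1% for CCAAT. With the window narrowed to 100 bases before the start, the CHR count of the G2/M members was again 9 of 12, while E2F matches were left in 4 of 12 S phase members and 7 of 40 members in all, against 12 of 40 in the longer window. The CHR element did not separate the G2/M members by their level in ENCDCs: it was present in 5 of the 7 called members and in 4 of the 5 members not called that had an entry. *Aurkb*, *Ccna2*, *Ccnd1*, *Ccnd2*, *Ccne2*, *E2f4*, *E2f5*, *Gmnn*, *Mcm4* and *Rb1* were not searched.

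Against gut cells, 17 of the 50 genes were higher in ENCDCs, 8 were lower and 25 were not called (edgeR's quasi-likelihood test, Benjamini-Hochberg adjusted p under 0.05 over 18866 genes). Among all tested genes 17.0% were called higher and 20.9% lower, so the 34.0% of members called higher was above that background and the 16.0% called lower was below it. The median log2 fold change of the members was 0.24, beside -0.04 over all tested genes. Changes were small: 1 member was called higher and at least 2-fold up, *Ccnd1*, and 1 was called lower and at least 2-fold down, *Ccnd3*, while the background for such calls was 8.26% higher and 16.1% lower. All 4 ENCDC libraries lay above all 4 gut libraries for 16 members (16.9% of all tested genes) and below them for 8 members (21.3% of all tested genes). Without ENCDC replicate 3 the counts were 17 higher and 9 lower. These are bulk libraries, in which fewer cells in a phase and less RNA per cell cannot be told apart.

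**Figure D1:**
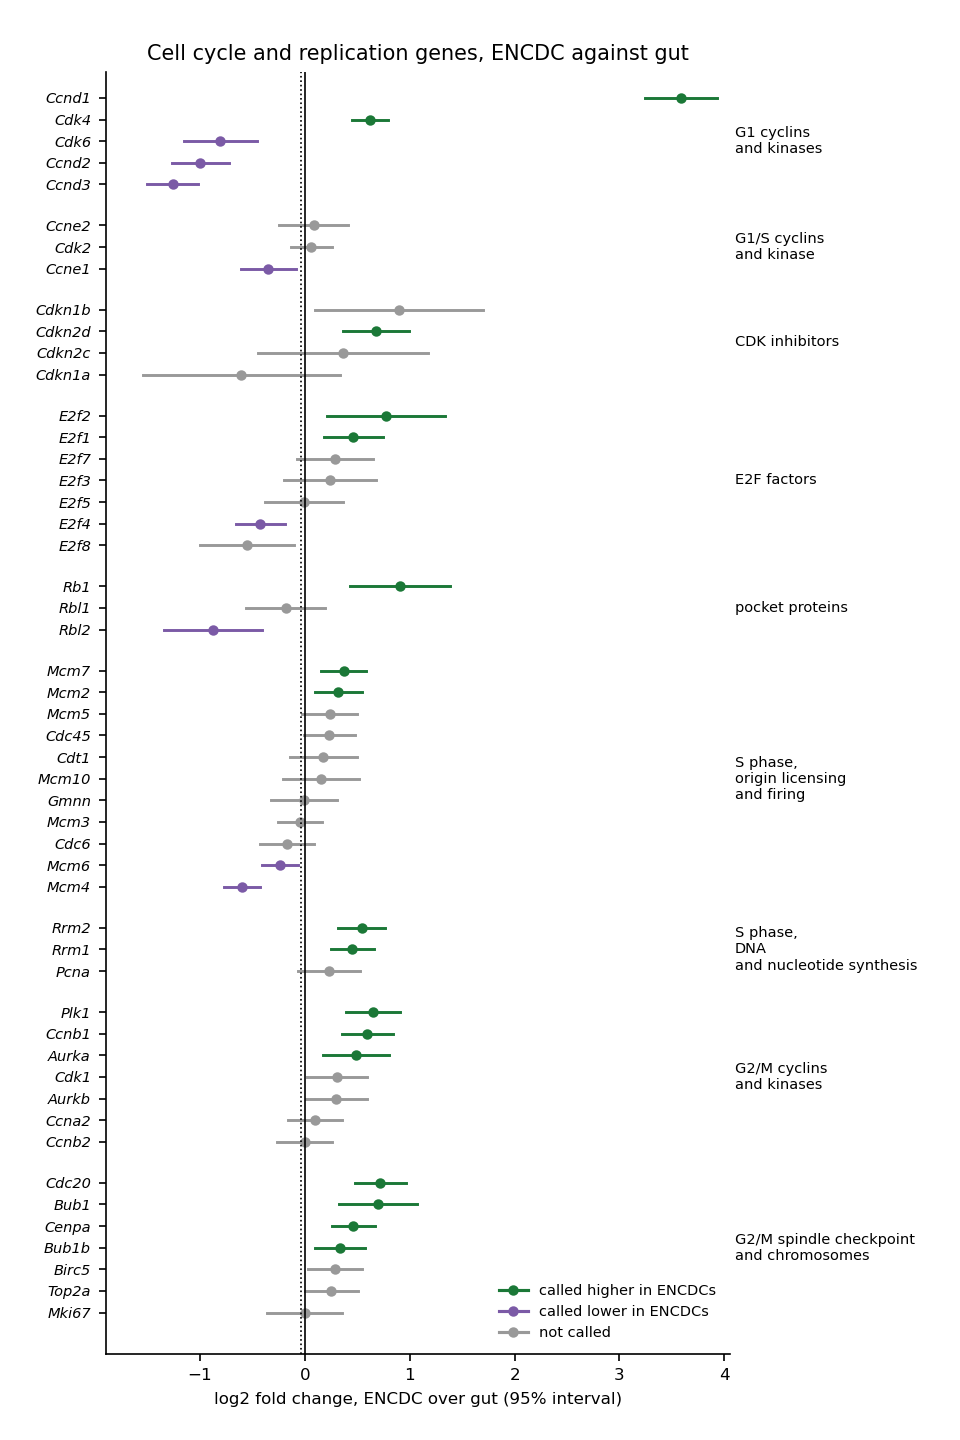
Log2 fold change of the 50 genes, ENCDC over gut, with 95% intervals from edgeR (4 libraries per group), grouped by role and coloured by call. The dotted line is the median of all tested genes, -0.04. Apart from *Ccnd1* at 3.59 and *Ccnd3* at -1.26, every point lies within 1 log2 unit of 0, and the G2/M groups hold no gene called lower.

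The G1 genes gave the widest spread, and the D-type cyclins moved in opposite directions. *Ccnd1* (cyclin D1, which activates CDK4 and CDK6 in response to growth signals) lies at chr7:144929931-144939925 on the minus strand of mm10. It had 2702, 2541, 2022 and 1936 normalized counts in ENCDC replicates 1 to 4 and 184, 161, 206 and 214 in the gut replicates. The lowest ENCDC library thus held far more *Ccnd1* than the highest gut library, and the log2 fold change was 3.59 (SE 0.16, edgeR adjusted p = 3.29e-08), a 12.0-fold higher level. *Ccnd2* (cyclin D2, chr6:127125162-127152193) had 4064, 3697, 3233 and 2792 normalized counts in ENCDCs and 7539, 6287, 6243 and 7443 in gut cells. *Ccnd3* (cyclin D3, chr17:47505051-47599691) had 3098, 3104, 4330 and 3185 in ENCDCs and 8088, 8154, 8396 and 8227 in gut cells. Both were lower in all 4 ENCDC libraries, by log2 fold changes of -1.0 (SE 0.12, edgeR adjusted p = 8.00e-05) for *Ccnd2* and -1.26 (SE 0.11, edgeR adjusted p = 6.60e-06) for *Ccnd3*. For *Ccnd3*, ENCDC replicate 3 was the highest ENCDC library and nearest to the gut level, and without it the log2 fold change was -1.39. That library also held the most mesenchyme marker counts of the ENCDC libraries, whose part in this value was not tested.

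**Figure D2:**
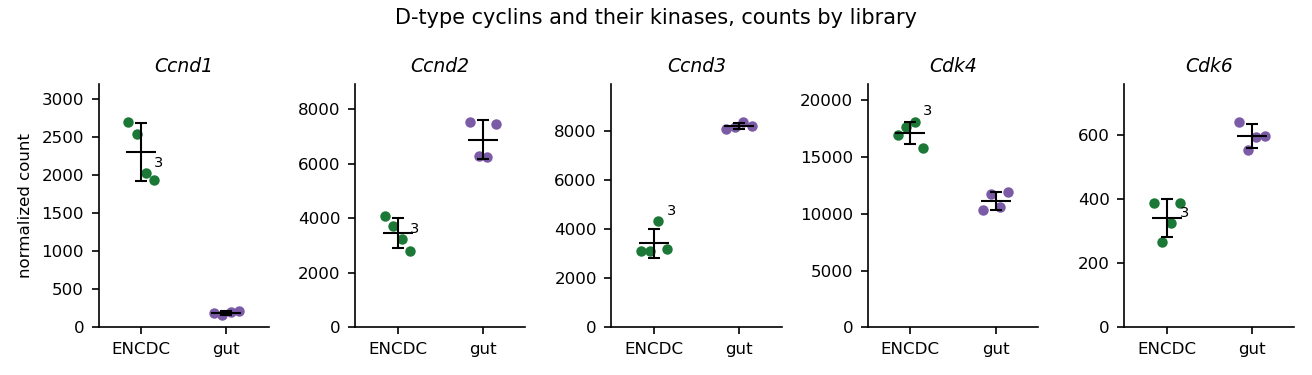
Normalized counts of the D-type cyclins and of *Cdk4* and *Cdk6* in single libraries (points), with the mean and SD of 4 libraries per group, ENCDC left of gut, and 3 marking ENCDC replicate 3. The groups do not overlap for any of the 5 genes: *Ccnd1* and *Cdk4* are higher in ENCDCs, and *Ccnd2*, *Ccnd3* and *Cdk6* are lower.

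Within the D-type cyclins, the mix of transcripts differed between the groups. Of the counts of all D-type cyclins per kilobase of exon, *Ccnd1* made up 33.9% to 42.2% in ENCDC libraries and 2.09% to 2.63% in gut libraries. Per kilobase of coding sequence the *Ccnd1* share was lower, 20.9% to 27.1% in ENCDC libraries and 1.08% to 1.37% in gut libraries. Per kilobase of exon, *Ccnd3* made up 26.0% to 39.0% in ENCDC libraries and 52.3% to 57.5% in gut libraries. On the scale of counts per kilobase of exon, the mean levels in ENCDCs were 489 for *Ccnd1*, 391 for *Ccnd3* and 366 for *Ccnd2*, an order that depended on the length used: per kilobase of coding sequence, *Ccnd1* was lowest in ENCDCs, with 2599 beside 3975 for *Ccnd2* and 3915 for *Ccnd3*. In gut cells *Ccnd1* was lowest on both scales (40.6 per kilobase of exon and 216 per kilobase of coding sequence). Of the exonic bases of *Ccnd1*, 1100 (23.4%) overlap *LTO1* on the other strand, and the library kit keeps no strand. *LTO1* itself had 412 to 547 deposited counts in ENCDCs and 264 to 435 in gut cells. Whether reads of the shared stretch were counted for *Ccnd1* was not tested, so some of its low count in gut cells may come from *LTO1*.

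The kinase partners also split. *Cdk4* had 16914, 17580, 18096 and 15786 normalized counts in ENCDCs and 10289, 11693, 10576 and 11917 in gut cells, a log2 fold change of 0.62 (SE 0.08, edgeR adjusted p = 7.84e-05). *Cdk6* went the other way, with 387, 266, 324 and 387 in ENCDCs and 642, 552, 595 and 596 in gut cells (log2 fold change -0.81, SE 0.16, edgeR adjusted p = 0.00205). The groups did not overlap for either kinase. Per kilobase of exon, the mean level of *Cdk4* was 5261 in ENCDCs and 3422 in gut cells, beside 24.4 and 42.6 for *Cdk6*. *Cdk4* shares 19.7% of its exonic bases with *Tspan31* on the other strand.

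The E-type cyclins and their kinase, which complete the step into S phase, differed little. *Ccne1* (cyclin E1) had 1393, 1371, 1571 and 1094 normalized counts in ENCDCs and 1647, 1904, 1610 and 1746 in gut cells. Every ENCDC library was below every gut library, and the log2 fold change of -0.35 (SE 0.12) was just past the threshold (edgeR adjusted p = 0.0413). That call was lost when any library but ENCDC replicate 3 was left out (edgeR adjusted p = 0.0542 to 0.0883, log2 fold changes -0.38 to -0.25). *Ccne2* (cyclin E2) had 979, 957, 1180 and 867 in ENCDCs and 704, 970, 1067 and 1012 in gut cells, and *Cdk2* had 2036, 1905, 1910 and 1899 in ENCDCs and 1670, 1929, 1860 and 1968 in gut cells. The groups overlapped for both, with 95% intervals of the log2 fold change of -0.24 to 0.42 for *Ccne2* and -0.13 to 0.26 for *Cdk2*.

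Of the 4 CDK inhibitors, 1 was called higher (25.0%) and 0 lower, beside 17.0% and 20.9% of all tested genes. *Cdkn2d* (p19INK4d, an inhibitor of CDK4 and CDK6) had 760, 887, 663 and 643 normalized counts in ENCDCs and 439, 494, 412 and 495 in gut cells, with no overlap and a log2 fold change of 0.68 (SE 0.14, edgeR adjusted p = 0.00333). *Cdkn1b* (p27Kip1, which inhibits CDK2 complexes and is associated with cell cycle exit) had 130, 126, 83.3 and 83.7 in ENCDCs and 43.7, 70.9, 35.5 and 76.2 in gut cells. Each ENCDC library was above each gut library, but the counts were low and the log2 fold change of 0.90 had an SE of 0.36 (edgeR adjusted p = 0.0735). It passed the threshold without ENCDC replicate 3 (log2 fold change 1.00, edgeR adjusted p = 0.0448), with voom and limma (adjusted p = 0.049) and with DESeq2 (adjusted p = 0.0449). These were 1 of the 8 fits that left out a library and 2 of the 8 other settings. Leaving out any other library gave edgeR adjusted p = 0.0686 to 0.177, and a replicate block gave 0.122. *Cdkn1a* (p21, a p53 target) had 84.3, 88.5, 21.1 and 99.2 in ENCDCs and 119, 98.5, 128 and 101.0 in gut cells. *Cdkn2c* (p18INK4c) had 95.4, 89.5, 94.4 and 191 in ENCDCs and 84.5, 140, 63.2 and 78.2 in gut cells. A single ENCDC library set each of these apart, replicate 3 at the low end for *Cdkn1a* and replicate 4 at the high end for *Cdkn2c*, and neither was called (edgeR adjusted p = 0.30 for *Cdkn1a* and 0.479 for *Cdkn2c*).

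E2F factors divide into activators (*E2f1*, *E2f2*, *E2f3*), pocket protein partners that mostly repress (*E2f4*, *E2f5*) and atypical repressors (*E2f7*, *E2f8*). Among the activators, *E2f2* had 203, 275, 380 and 331 normalized counts in ENCDCs and 233, 182, 145 and 133 in gut cells. ENCDC replicate 1 lay below gut replicate 1, and the log2 fold change was 0.78 (SE 0.26, edgeR adjusted p = 0.0338). The *E2f2* call was lost without ENCDC replicate 3 or 4 or gut replicate 2, 3 or 4 (edgeR adjusted p = 0.0642 to 0.0920). *E2f1* had 914, 1108, 860 and 1074 in ENCDCs and 743, 685, 639 and 808 in gut cells, with no overlap, a log2 fold change of 0.46 (SE 0.13) and an edgeR adjusted p of 0.0155. By contrast the *E2f3* counts of 583, 549, 684 and 791 in ENCDCs and 471, 512, 783 and 446 in gut cells overlapped. Among the repressive factors, *E2f4* was lower in every ENCDC library, with 1197, 1048, 1215 and 1172 against 1593, 1774, 1401 and 1452 in gut cells (log2 fold change -0.42, SE 0.11, edgeR adjusted p = 0.00938). *E2f8* had 304, 274, 410 and 242 in ENCDCs and 379, 446, 412 and 567 in gut cells, so that ENCDC replicate 3 fell within the gut range. Its log2 fold change was -0.55 (edgeR adjusted p = 0.0529), and -0.72 without ENCDC replicate 3 (edgeR adjusted p = 0.00826). It also passed with voom and limma (adjusted p = 0.0405), with DESeq2 (adjusted p = 0.0209) and in 3 of the other 6 settings, and in none of the 7 fits that left out another library (edgeR adjusted p = 0.0544 to 0.160). *E2f5* had 738, 747, 462 and 559 in ENCDCs and 646, 618, 564 and 695 in gut cells, with ENCDC libraries on both sides of the gut range, and *E2f7* was not called either (log2 fold change 0.29).

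The pocket proteins, which bind E2F factors and silence their targets until they are phosphorylated, were called in both directions. *Rb1* had 714, 864, 487 and 1015 normalized counts in ENCDCs and 405, 454, 463 and 322 in gut cells, a log2 fold change of 0.91 (SE 0.22, edgeR adjusted p = 0.00705). *Rbl2* (p130, the pocket protein of resting cells) had 471, 527, 272 and 540 in ENCDCs and 789, 756, 1040 and 735 in gut cells, a log2 fold change of -0.87 (SE 0.21, edgeR adjusted p = 0.00759). Neither pair of groups overlapped, although ENCDC replicate 3 was the lowest ENCDC library for both genes. *Rbl1* (p107), with 642, 503, 695 and 941 in ENCDCs and 829, 757, 799 and 768 in gut cells, was not called (edgeR adjusted p = 0.447).

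Among the 14 S phase members, 4 were higher (28.6%) and 2 lower (14.3%) in ENCDCs, beside 17.0% and 20.9% of all tested genes, with a median log2 fold change of 0.20. The subunits of the MCM2-7 helicase, which is loaded on origins in G1 and unwinds DNA in S phase, did not move as a block. *Mcm4* was lower, with 4151, 3944, 3625 and 4046 normalized counts in ENCDCs and 6228, 6102, 5709 and 5830 in gut cells, groups that were far apart (log2 fold change -0.60, SE 0.08, edgeR adjusted p = 0.000105). *Mcm7* was higher, with 4925, 5031, 6396 and 5331 in ENCDCs and 3995, 4448, 4328 and 3991 in gut cells (log2 fold change 0.37, SE 0.10, edgeR adjusted p = 0.0113). The remaining called subunits differed by less. *Mcm2* had 6398, 5532, 7524 and 6090 in ENCDCs and 4934, 5538, 4786 and 5199 in gut cells, where gut replicate 2 lay just above ENCDC replicate 2 (log2 fold change 0.32, edgeR adjusted p = 0.0271). *Mcm6* had 7116, 7230, 6975 and 7476 in ENCDCs and 7771, 9395, 8230 and 8495 in gut cells, with no overlap (log2 fold change -0.23, SE 0.08, edgeR adjusted p = 0.0328). The *Mcm2* call was lost without ENCDC replicate 1 or gut replicate 1, 3 or 4 (edgeR adjusted p = 0.0534 to 0.0790), and the *Mcm6* call without ENCDC replicate 1 or 2 or gut replicate 3 or 4 (edgeR adjusted p = 0.0533 to 0.0751). *Mcm3* had 4873, 4597, 5587 and 5590 in ENCDCs and 5237, 5992, 5214 and 4853 in gut cells, and *Mcm5*, whose highest values were those of ENCDC replicates 3 and 4 (6730 and 5719), also overlapped. All 6 subunits were abundant, with mean levels per kilobase of exon of 918 for *Mcm2* to 1543 for *Mcm6* in ENCDCs and 735 for *Mcm2* to 1816 for *Mcm6* in gut cells. The order depended on the length used. Per kilobase of coding sequence, *Mcm4* was the lowest in ENCDCs (1524, beside 2355 for *Mcm2*) and *Mcm6* again the highest (2923).

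The 5 members that load or start the helicase were not called. *Cdc6* and *Cdt1*, which load the helicase, *Gmnn* (geminin, the inhibitor of CDT1), *Mcm10* and *Cdc45*, which join the helicase at firing, had log2 fold changes between -0.17 and 0.23 (edgeR adjusted p = 0.120 to 0.963). Of these *Cdc45* came nearest to a call, with 1068, 1054, 922 and 926 normalized counts in ENCDCs and 803, 798, 937 and 836 in gut cells. The subunits of ribonucleotide reductase, which makes the deoxynucleotides for DNA synthesis, were both higher. *Rrm2*, the subunit whose level follows S phase, had 8412, 8245, 7443 and 7917 in ENCDCs and 5122, 6678, 4940 and 5230 in gut cells (log2 fold change 0.54, SE 0.10, edgeR adjusted p = 0.00159). *Rrm1* had 9324, 9164, 8289 and 10078 in ENCDCs and 6068, 7682, 6783 and 6388 in gut cells (log2 fold change 0.45, SE 0.09, edgeR adjusted p = 0.00275). In both genes gut replicate 2 was the highest gut library and was still below every ENCDC library. *Pcna*, the sliding clamp of the DNA polymerases, had 3218, 3610, 2855 and 2619 in ENCDCs and 2362, 3247, 2352 and 2531 in gut cells, and was not called (log2 fold change 0.23, edgeR adjusted p = 0.204).

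The G2/M members were called in 1 direction: 7 of 14 were higher in ENCDCs, 0 were lower, and the median log2 fold change was 0.32. Among all tested genes 17.0% were called higher and 20.9% lower. At an unadjusted p under 0.05, edgeR gave 0 members lower as well, and voom with limma and DESeq2 called 0 lower. Their summed normalized counts were 41396 to 45673 in ENCDC libraries and 28883 to 36582 in gut libraries, so the sums did not overlap. Gut replicate 1 was the lowest gut library for 11 of the 14, and without it 5 were called higher. Without ENCDC replicate 3, 7 were called higher. The markers of postmitotic neurons and of mesenchyme given above also separated the groups. Erythroid markers did too (6 of 6 lower in ENCDCs), with sums of 430 to 1138 in ENCDC libraries and 60682 to 82715 in gut libraries. Of the macrophage and leukocyte markers, 5 of 5 were lower in ENCDCs. What part any of these cells had in the G2/M differences was not tested.

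Among the cyclins and kinases that drive entry into mitosis, *Plk1* (Polo-like kinase 1) had 1988, 2403, 2533 and 2131 normalized counts in ENCDCs and 1246, 1343, 1603 and 1582 in gut cells, a log2 fold change of 0.65 (SE 0.12, edgeR adjusted p = 0.00131). *Ccnb1* (cyclin B1, the partner of CDK1) had 4670, 4689, 4901 and 4336 in ENCDCs and 2444, 3456, 3382 and 3013 in gut cells (log2 fold change 0.60, SE 0.11, edgeR adjusted p = 0.00149). *Aurka* (Aurora A kinase, of the spindle poles) had 1563, 2150, 2046 and 1635 in ENCDCs and 1082, 1243, 1532 and 1409 in gut cells (log2 fold change 0.49, SE 0.14, edgeR adjusted p = 0.0189). All 3 were higher in every ENCDC library than in any gut library, and the *Aurka* call was lost without ENCDC replicate 2 (edgeR adjusted p = 0.0535), gut replicate 1 (0.0572) or gut replicate 2 (0.0650). *Ccnb2* (cyclin B2) had 2235, 2550, 2128 and 1918 in ENCDCs and 2066, 2622, 2146 and 2010 in gut cells, groups that overlapped, with a 95% interval of the log2 fold change of -0.26 to 0.26. *Ccna2* (cyclin A2) had 4858, 4885, 3675 and 4283 in ENCDCs and 3446, 4563, 4309 and 4197 in gut cells, which overlapped as well. *Cdk1* had 2635, 3073, 2395 and 2311 in ENCDCs and 1644, 2319, 2274 and 2192 in gut cells, where gut replicate 2 lay just above ENCDC replicate 4. *Cdk1* and *Aurkb* (Aurora B) were not called (log2 fold changes 0.31 and 0.30, edgeR adjusted p = 0.0910 and 0.101), and *Aurkb* passed without ENCDC replicate 4 (edgeR adjusted p = 0.0418).

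**Figure D3:**
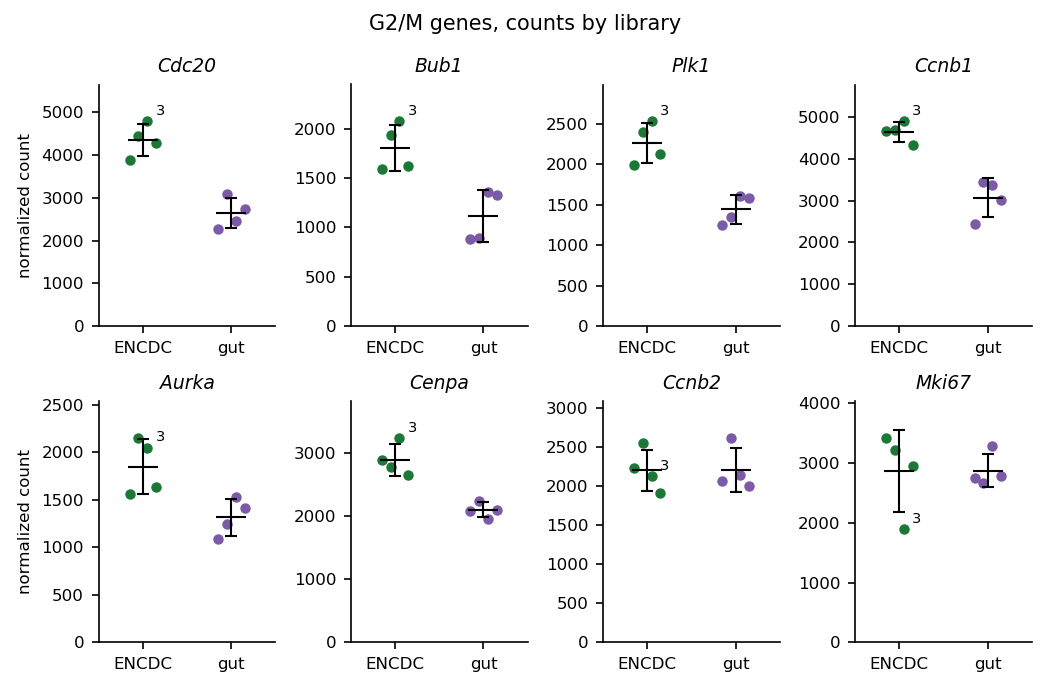
Normalized counts of 8 G2/M genes in single libraries (points), with the mean and SD of 4 libraries per group, ENCDC left of gut, and 3 marking ENCDC replicate 3. The groups are apart for *Cdc20*, *Bub1*, *Plk1*, *Ccnb1*, *Aurka* and *Cenpa* and overlap for *Ccnb2* and *Mki67*, where ENCDC replicate 3 has 1890 counts of *Mki67*.

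Of the 7 members of the spindle checkpoint, which holds anaphase until chromosomes are attached, and of chromosomes, 4 were higher in ENCDCs. That is 57.1%, beside 17.0% of all tested genes. The checkpoint kinase *Ttk*, which is not among the 50 genes, was not called (log2 fold change 0.20, edgeR adjusted p = 0.442). *Cdc20*, the activator of the anaphase-promoting complex that the checkpoint restrains, had 3893, 4445, 4792 and 4291 normalized counts in ENCDCs and 2272, 3091, 2456 and 2750 in gut cells (log2 fold change 0.72, SE 0.11, edgeR adjusted p = 0.000394). *Bub1*, a checkpoint kinase of the kinetochore, had 1593, 1931, 2074 and 1618 in ENCDCs and 881, 887, 1358 and 1323 in gut cells (log2 fold change 0.70, SE 0.17, edgeR adjusted p = 0.00700). *Bub1b* (BubR1, part of the complex that inhibits CDC20) had 3701, 3601, 3213 and 3660 in ENCDCs and 2286, 2823, 3108 and 3042 in gut cells (log2 fold change 0.33, SE 0.11, edgeR adjusted p = 0.0309). The groups did not overlap for any of these, and the *Bub1b* call was lost without ENCDC replicate 1, 2 or 4 or gut replicate 1 or 2 (edgeR adjusted p = 0.0597 to 0.0771). *Cenpa*, the histone H3 variant that marks centromeres, had 2884, 2776, 3234 and 2650 in ENCDCs and 2083, 2243, 1954 and 2100 in gut cells (log2 fold change 0.46, SE 0.09, edgeR adjusted p = 0.00230). The remaining 3 chromosome genes included the common proliferation markers. *Mki67* (Ki-67, present in all dividing cells) had 3416, 3210, 1890 and 2937 in ENCDCs and 2750, 2669, 3277 and 2772 in gut cells. Its log2 fold change was 0.00 with a 95% interval of -0.36 to 0.35, and 0.15 (edgeR adjusted p = 0.237) without ENCDC replicate 3, the lowest library. *Top2a* (topoisomerase II alpha, which untangles chromosomes) had 6132, 5399, 5864 and 6033 in ENCDCs and 3834, 5064, 5776 and 5024 in gut cells, where gut replicate 3 lay within the ENCDC range. *Top2a* and *Birc5* (survivin) had log2 fold changes of 0.25 and 0.29 and were not called (edgeR adjusted p = 0.112 and 0.0788). *Top2a* passed without gut replicate 3 (edgeR adjusted p = 0.0477) and *Birc5* without gut replicate 2 (edgeR adjusted p = 0.0483).

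Other genes of the same machinery were listed by role. Of 44 further mitosis genes, 22 were higher and 1 lower in ENCDCs, beside 17.0% higher and 20.9% lower among all tested genes. The median log2 fold change of these 44 mitosis genes was 0.40, beside -0.04 over all tested genes. The called ones with the highest counts were *Bub3*, the partner of BUB1 and BubR1, *Ncapd2* of the condensin complex, *Racgap1* of the cytokinetic ring and *Tpx2*, which activates Aurora A. *Bub3* had 8199, 8807, 8781 and 7367 normalized counts in ENCDCs and 2853, 3662, 3645 and 3667 in gut cells, a log2 fold change of 1.26 (SE 0.10, edgeR adjusted p = 3.48e-06), and the other 3 were between 0.51 and 0.63. The gene called lower was *Wee1*, the kinase that holds CDK1 inactive, with 856, 765, 1079 and 872 normalized counts in ENCDCs and 1341, 1337, 1505 and 1469 in gut cells (log2 fold change -0.66, SE 0.12, edgeR adjusted p = 0.00137). Of 42 further replication genes, 4 were higher (9.52%) and 2 lower (4.76%), both below the shares of all tested genes, with a median of 0.07. The higher ones were *Uhrf1*, which maintains DNA methylation behind the fork (log2 fold change 0.70, edgeR adjusted p = 0.00182), *Chaf1b* of the histone chaperone CAF-1 (0.41), *Dbf4* (0.56) and *Prim2* of primase (0.41). The lower ones were *Cdc7*, the kinase that DBF4 activates at origins (-0.59, edgeR adjusted p = 0.00297), and *Orc5* of the origin recognition complex (-0.45). Calls of *Dbf4* (edgeR adjusted p up to 0.102), *Prim2* (up to 0.133) and *Orc5* (0.0534) were lost in 7, 6 and 1 of the 8 fits that left out a library: for *Dbf4* all but ENCDC replicate 3, for *Prim2* all but ENCDC replicate 3 and gut replicate 3, and for *Orc5* gut replicate 1. Of 8 genes of the S phase checkpoint and repair, 0 were called by edgeR, which called 17.0% of all tested genes higher and 20.9% lower. Of these 8, 0 had an unadjusted p under 0.05 in edgeR, and voom with limma and DESeq2 called 0. The difference between the mitosis and replication lists was not tested.

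**Figure D4:**
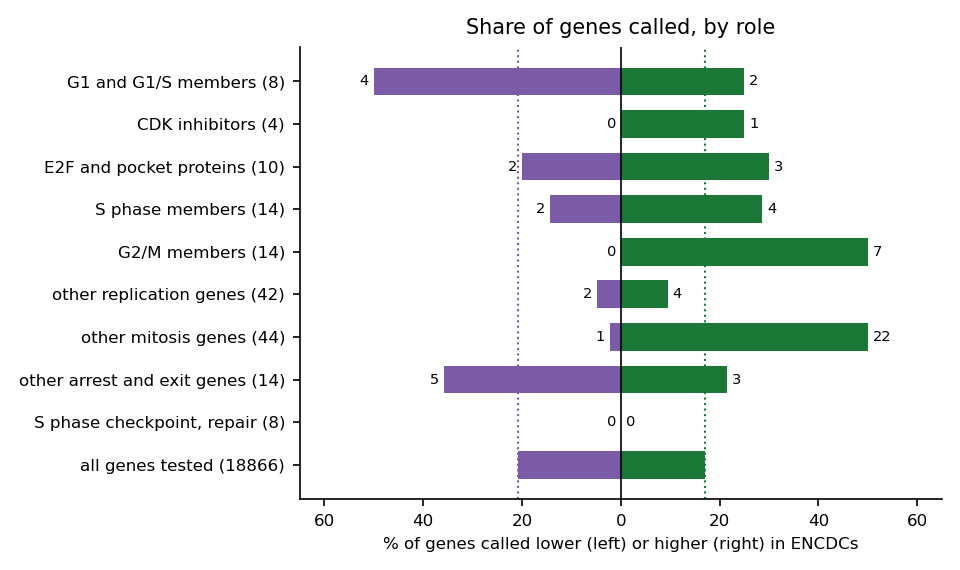
Percent of genes called lower (left) or higher (right) in ENCDCs by edgeR for each role, with the number of genes tested in parentheses and the number called at the bar ends. Dotted lines are the shares of all 18866 tested genes, 20.9% lower and 17.0% higher. The G2/M members (7 of 14) and the other mitosis genes (22 of 44) reach the same share higher, and 4 of the 42 other replication genes reach 9.52%.

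Of 14 tested genes of arrest and cell cycle exit, 3 were higher (21.4%) and 5 lower (35.7%) in ENCDCs, beside 17.0% and 20.9% of all tested genes. *Cdkn1c* (p57Kip2, a CDK inhibitor of embryonic tissues) was lower, with 7476, 7619, 9362 and 6837 normalized counts in ENCDCs and 12147, 12855, 12132 and 14368 in gut cells (log2 fold change -0.72, SE 0.10, edgeR adjusted p = 0.000244). *Gas1*, a membrane protein first found in growth-arrested cells and also a Hedgehog co-receptor, was lower by a log2 fold change of -1.62 (SE 0.10, edgeR adjusted p = 5.24e-07). *Btg2* (-0.84), *Gadd45a* (-1.04) and *Gadd45b* (-3.77), which are stress and growth arrest genes, were lower too, and *Gadd45b* had 18.3, 9.15, 0 and 3.1 normalized counts in ENCDCs and 101.0, 113, 107 and 102 in gut cells. Its paralogue *Gadd45g* was higher, with 746, 844, 703 and 722 in ENCDCs and 169, 192, 102 and 207 in gut cells (log2 fold change 2.17, SE 0.21, edgeR adjusted p = 1.45e-05). *Trp53* (p53) and *Ccng2* (cyclin G2, a cyclin of resting cells) were higher by 0.32 and 0.55 on the log2 scale. In the Myc family of growth-promoting factors, *Mycn* (log2 fold change 1.81, SE 0.16, edgeR adjusted p = 5.58e-06) and *Mycl* (2.37, SE 0.16, edgeR adjusted p = 7.58e-07) were higher and *Myc* was not called. *Mycn* had 1638, 1331, 1618 and 1732 normalized counts in ENCDCs and 390, 359, 557 and 494 in gut cells. *Tfdp1*, the dimer partner of the E2F factors, and *Rbbp4*, a histone-binding subunit of the MuvB core, were higher by 0.32 and 0.43. Of the genes named, *Dbf4*, *Prim2*, *Btg2*, *Gadd45a* and *Gadd45b* were picked after their values had been seen, as were *E2f8*, *Cdc45*, *Ccnb2* and *Mki67* for values in each library. *Ttk* and *Myc*, which were not called, also fall outside the rule for naming genes of the other lists.

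**Figure D5:**
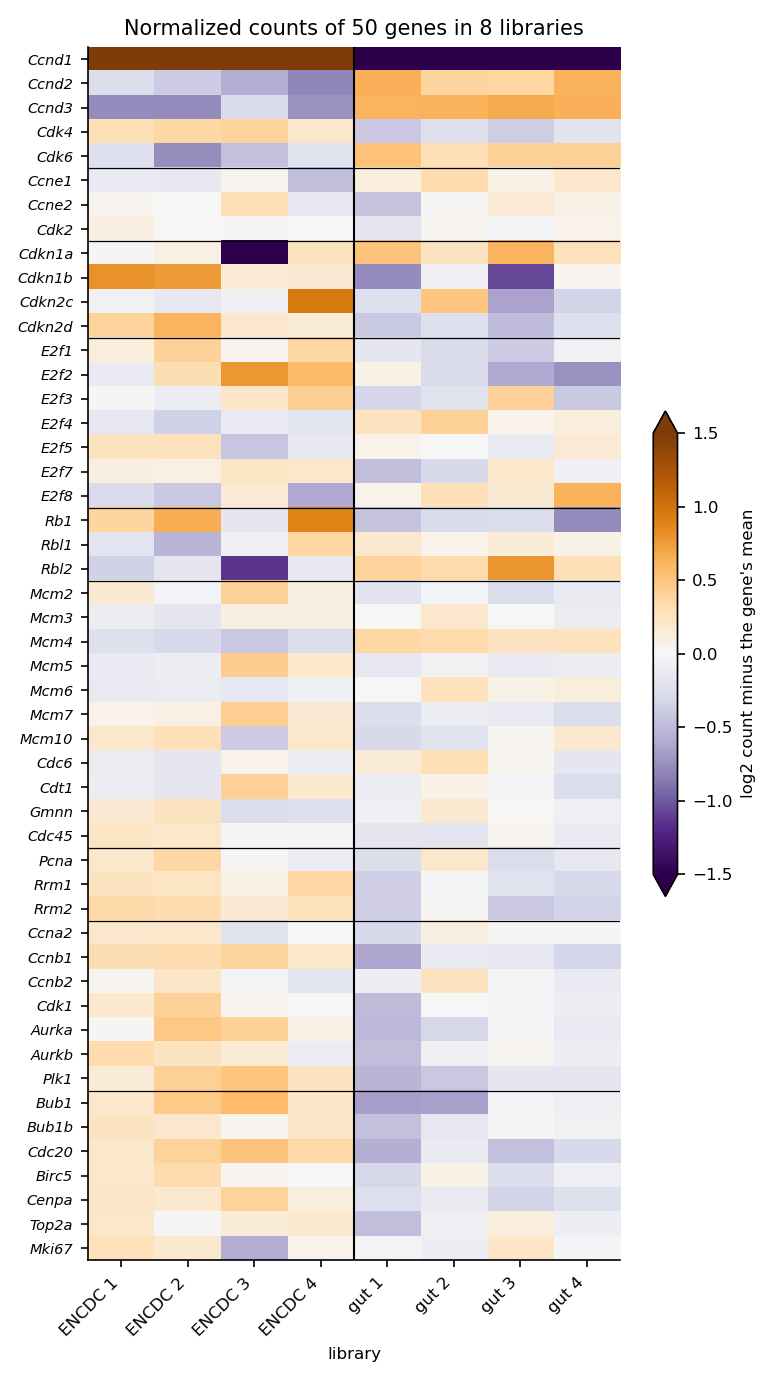
Normalized counts of the 50 genes in each library, as log2 count minus the gene's mean over 8 libraries, ENCDC libraries left of gut libraries, with black lines between roles. The colour scale ends at 1.5, and *Ccnd1* lies beyond it in all 8 libraries. Single libraries that stand out include ENCDC replicate 3 for *Cdkn1a* (21.1 counts), *Rbl2* (272) and *Mki67* (1890), and ENCDC replicate 4 for *Cdkn2c* (191).

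Exons of 16 of the 50 genes overlap another gene, and 6 genes have a pseudogene of at least 95% identity over at least 200 bases and 10% of the transcript (*Ccnb1*, *Ccnd3*, *Pcna*, *Mcm7*, *Cdc6* and *Rrm2*), so their levels are uncertain by the reads that could be placed on either. Pseudogenes with deposited counts averaged at most 17.8 per library, but the *Mcm7* pseudogene, *Gm5487*, had no count to compare. These low counts do not show how many reads were shared. How the deposited minimum counts treat reads that fit both copies was not tested.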

How the data were processed

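mRNA-seq counts of 4 ENCDC and 4 gut libraries were analysed. The authors aligned reads to mm10 with STAR 2.4.2a (submitters' processing notes), brought the libraries to one depth with PORT and deposited the minimum read count per gene, which is a whole number and not CPM as the design text has it. Counts were tested in R 4.3.3 with edgeR 4.0.16 (TMM factors, quasi-likelihood F test, Benjamini-Hochberg adjustment over 18866 genes). A gene was tested if either group by itself met both limits. These were a group mean count of 3 or more and a count above 0 in 3 or more of the group's 4 libraries. Alternatives were voom with limma 3.58.1 (the test of the study), DESeq2 1.42.0, other factors and filters, a replicate block, leaving out each library, and testing for changes beyond 2-fold. Tests were checked on simulated data. Positions and exons came from GENCODE M21, and promoters from RefSeq (GRCm38.p6). Pseudogenes were found with blastn 2.17.0. Tables and figures used Python 3.11.15, pandas 2.3.3 and matplotlib 3.10.9. Per-library values were given for up to 5 genes per role, called ones first, and for the other lists the 4 most highly counted called genes plus any called the opposite way to the rest of their list. The genes and lists were chosen with earlier results of these data known. *Cdkn2a* and *Cdkn2b* on the arrest list were not tested. Small RNA data were not analysed here.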

Additional observations from a re-analysis of the deposited data

Results flagged for a closer look

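In 6 of 100 sets of 4 libraries (50 genes in 2 groups), 1 library lay so far from the other 3 that its gap to the nearest took up nearly the whole range (above the 95% critical value of Dixon's test), which chance gives in about 1 in 20 sets. *Ccnd3* had 4330 normalized counts in ENCDC replicate 3, *Cdk2* had 2036 in ENCDC replicate 1, and *Cdkn2c* had 191 in ENCDC replicate 4. *Mcm10* had 697 in ENCDC replicate 3, the low end of its group. In gut cells, *Rrm2* had 6678 in replicate 2 and *Mki67* had 3277 in replicate 3.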

How the results depend on the processing

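Of the 25 called genes, 19 kept their call in every fit but the test against a 2-fold change. Under that test 1 of the 50 genes was higher and 1 lower, against 17 and 8, and 4 of the other genes were higher and 2 lower, against 33 and 8. Over all genes it called 983 higher and 2031 lower, against 3212 and 3946. Genes not called that changed sign did so near 0. With no filter on low counts *Ccnb2* had a log2 fold change of 0.00356 and *Mki67* 0.00389. With a library left out, log2 fold changes ran from -0.031 to 0.15 for *Ccne2*, from -0.10 to 0.11 for *E2f5*, from -0.088 to 0.010 for *Mcm3*, from -0.099 to 0.070 for *Gmnn*, from -0.075 to 0.062 for *Ccnb2* and from -0.095 to 0.15 for *Mki67*. The cause was not tested. Leaving out a library gave 14 to 17 genes higher and 6 to 9 lower, and 26 to 38 and 7 to 9 of the other genes. Over all genes these fits called 2670 to 3535 higher and 3311 to 4243 lower.

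Same-numbered libraries did not deviate together (correlations of deviations -0.013 to 0.032, beside -0.05 to 0.061 for differently numbered ones). The labels do not say whether equal numbers share a sample, and these correlations cannot decide it. A replicate block gave 14 of the 50 genes higher and 6 lower, and 28 and 8 of the other genes. Over all genes the block called 2609 higher and 3324 lower, against 3212 and 3946 without it. Coding lengths came from GENCODE M21, a choice made after seeing the data, since the planned protein lengths were not used. Genes under about 100 counts, such as *Cdkn1a*, *Cdkn1b* and *Cdkn2c*, have wide intervals at this depth.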
